A study of Macaca fascicularis with 6 samples.

Results

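The lysosome is the acidic compartment in which cells break down glycosaminoglycans, glycans, proteins and lipids delivered by endocytosis and autophagy. Its soluble enzymes are tagged with mannose 6-phosphate, carried by receptors from the Golgi, and work beside heavily glycosylated membrane proteins. The transcription factor TFEB switches on many of these genes together. In liver, hepatocytes and macrophages are both rich in lysosomes, and acid lipase there releases the cholesterol that sterol-sensing receptors respond to.

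Genes of lysosomal enzymes, their activators and lysosomal membrane proteins were followed in the liver of 6 cynomolgus macaques (Macaca fascicularis), each array holding RNA of a single animal according to the design text. There were 3 vehicle animals and 3 that received a compound acting on the liver X receptor (LXR), a nuclear receptor for oxidised cholesterol. The ligand arrays carry the letters GW in their titles, and strain, age, dose, length of treatment and the identity of the ligand were not given in the sources used here. The list held 40 genes, and 38 of these were named by a probe set with a single gene symbol, out of 19775 genes so named on the array. Each gene was read from its brightest such probe set, ranked by the mean over the 6 arrays. GLB1 and ACP5 had no probe set of that kind and were not analysed here. Of the 38 genes, 37 were bright enough to be tested, and MANBA was not. The symbols are those of human probes, and 37 of the 38 also occur as symbols in the macaque gene annotation (assembly T2T-MFA8v1.1), GUSB being the exception. No sequence of these genes or probes was used here.

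The median MAS5 signal, an intensity in arbitrary units, ran from 111 to 139 over the 6 arrays. Ligand array 1 stood apart on the first principal component, at -89.8 against 0.632 to 36.8 for the other 5 arrays. Summed signals of 10 hepatocyte markers were 718011 to 829967 on the vehicle arrays and 733596 to 827429 on the ligand arrays. The LXR targets SREBF1, ABCG1, MYLIP and ABCA1 were all higher on every ligand array than on every vehicle array, by log2 differences of 2.57, 1.31, 1.36 and 0.77. The log2 ratio of 3' to 5' probe sets of ACTB, a measure of RNA integrity, was 2.15 to 3.06 with vehicle and 2.62 to 4.0 with the ligand (exact two-sided permutation p = 0.4, where 0.1 is the smallest that 3 against 3 allows).

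The comparison asked whether lysosomal genes differ between livers of animals given the ligand and of animals given vehicle. With the ligand, 26 of the 37 tested genes had a higher mean and 11 a lower one, and the median log2 difference was 0.23, or 1.17-fold. Among all 13349 genes tested the same way, 50.3% were higher, 49.7% lower and the median was 0.0027. On 9 of the 37, which is 24.3%, all 3 ligand arrays exceeded all 3 vehicle arrays, against 6.21% of all tested genes, and on 0 of the 37 every ligand array lay below, against 5.21%. These 9 genes were GALNS, NAGLU, CTSD, CTSL, LIPA, ASAH1, PPT1, PSAP and LAMP1.

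By limma, run on log2(signal + 16), 0 of the 37 genes passed at an adjusted p of 0.05, as did 0% of the 27304 probe sets tested. Unadjusted p-values were under 0.05 for 5 genes, all higher, which is 13.5%, against 3.70% of all tested genes higher and 2.42% lower. That count of 5 was 3 without vehicle array 2. Genes without overlap in either direction, 9 on all arrays, were 14 without vehicle array 3 and also 14 without ligand array 1. There fewer arrays have to be separated, and the 14 include lower genes, such as CTSH without vehicle array 3 and NEU1 without ligand array 1. The share of all tested genes was not computed for such splits. Without ligand array 1, 22 of the 37 genes were higher and the median was 0.23. A tested gene needed a mean signal of 129 over the 6 arrays, and GALNS, SGSH and CTSD had vehicle means below it, so these 3 were tested through their ligand arrays. Of the other 34 genes, 23 were higher, 7 had no overlap and 4 had an unadjusted p under 0.05 in limma, with a median log2 difference of 0.20. The shares of all tested genes given above were not restricted in this way, so they are no like measure for the 34.

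**Figure D1:**
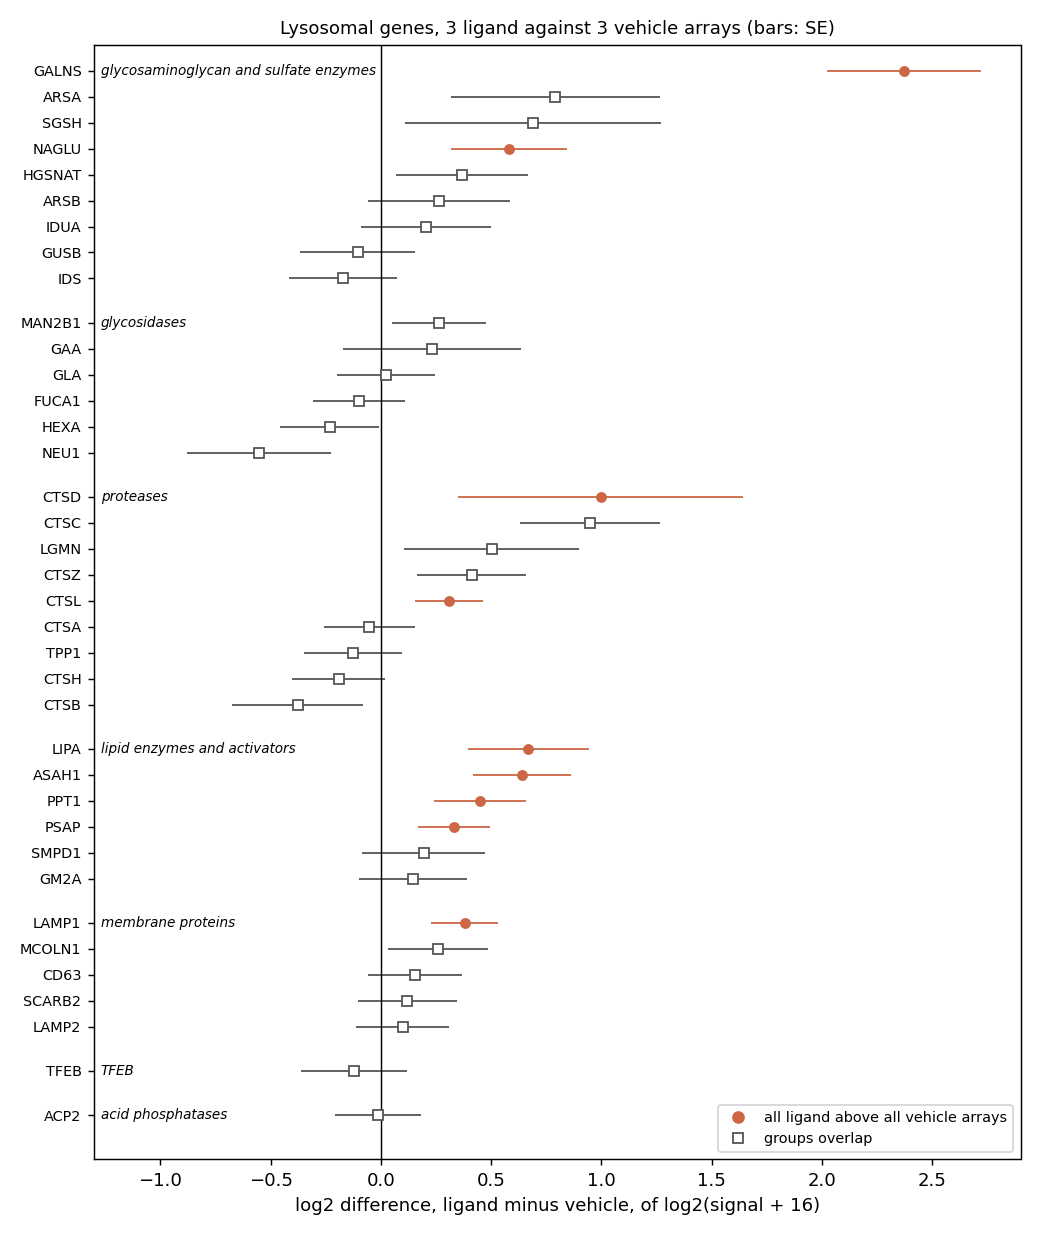
Log2 differences between the 3 ligand and 3 vehicle arrays for the 37 tested lysosomal genes, grouped by role, with SE as bars. Filled circles mark the 9 genes on which the ligand arrays all exceeded the vehicle arrays, and GALNS, at 2.37, stands farthest from 0.

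Enzymes that strip sulfate groups and break down glycosaminoglycans, together with the sulfatide sulfatase ARSA, had the gene that differed most. GALNS, a sulfatase of keratan sulfate and chondroitin sulfate, had signals of 84.0, 114 and 82.9 with vehicle and 434, 624 and 603 with the ligand, in the order of arrays 1 to 3 used for all signals here. The lowest ligand array was well above the highest vehicle array. The mean was 93.7 ± 17.9 (SD, n = 3) with vehicle and 554 ± 104 (SD, n = 3) with the ligand. The log2 difference of 2.37 ± 0.35 (SE), or 5.17-fold, ranked 3 by p among the 27304 probe sets, just ahead of that of SREBF1. Its unadjusted limma p was 4.1e-05 and its limma adjusted p 0.370, so GALNS did not pass, and the adjusted p ran from 0.207 to 0.794 over 17 alternatives in which it was tested. Leaving out single arrays gave 2.28 to 2.53. A second GALNS probe set was too dim to be tested, with a mean of 39.0 with vehicle and 34.0 with the ligand, so the difference rests on 1 probe set.

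Of the other 8 tested genes of this group, 6 were higher and 2 lower. NAGLU, a glucosaminidase of heparan sulfate, had signals of 314, 421 and 426 with vehicle and 636, 524 and 592 with the ligand. All 3 ligand arrays lay above all 3 vehicle arrays, at a log2 difference of 0.58 ± 0.26 (SE). ARSA, whose substrate is sulfatide, had 295, 90.7 and 277 with vehicle and 426, 226 and 454 with the ligand. Its groups overlapped, since ligand array 2 was below vehicle arrays 1 and 3. The log2 difference of ARSA was 0.79 ± 0.47 (SE), or 0.29 without vehicle array 2.

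The remaining enzymes of heparan and dermatan sulfate did not stand apart. SGSH, the sulfamidase of heparan sulfate, had a log2 difference of 0.69 ± 0.58 (SE), and HGSNAT, the membrane acetyltransferase that acts before NAGLU, 0.37 ± 0.30 (SE). ARSB, a sulfatase of dermatan sulfate, and IDUA, the iduronidase, had 0.26 ± 0.32 and 0.20 ± 0.29 (SE). IDS, the iduronate sulfatase, and GUSB, the beta-glucuronidase, were the lower pair, at -0.17 ± 0.24 and -0.11 ± 0.26 (SE). Of these 6 differences, 4 were no larger than their errors, the exceptions being SGSH and HGSNAT. The group's median was 0.37, with 7 of 9 genes higher. All ligand arrays were highest for 2 of the 9, GALNS and NAGLU, which is 22.2%, against 6.21% of all tested genes. GALNS and SGSH were tested through their ligand arrays.

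The 6 genes listed as lipid enzymes and activators were all higher with the ligand. Of these, 4 had groups that did not overlap, which is 66.7%, against 6.21% of all tested genes. That list does not hold every lysosomal enzyme of lipids. Among those listed elsewhere, ARSA had a log2 difference of 0.79, GLA 0.023, HEXA -0.23 and GALC -0.54. LIPA, the acid lipase that frees cholesterol from the esters of ingested lipoproteins, had signals of 2000, 1453 and 1863 with vehicle and 2401, 4189 and 2176 with the ligand. Ligand array 2 was far above the rest, while the other two ligand arrays lay just above vehicle array 1. The LIPA mean was 1772 ± 285 with vehicle and 2922 ± 1103 under the ligand (SD, 3 arrays each). The log2 difference was 0.67 ± 0.27 (SE), or 1.59-fold, at unadjusted p = 0.035 and adjusted p = 0.874 in limma. It was 0.38 without ligand array 2.

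ASAH1, the acid ceramidase, had 618, 677 and 669 with vehicle and 1080, 954 and 1054 with the ligand. Here both groups were tight, with means of 655 ± 32 and 1030 ± 66.6 (SD, 3 arrays each), and the lowest ligand array was clear of the highest vehicle array. The ASAH1 log2 difference was 0.64 ± 0.22 (SE), or 1.56-fold, at unadjusted p = 0.016 and adjusted p = 0.829 in limma. A second ASAH1 probe set of like brightness also separated the groups, at 0.44 ± 0.24 (SE), while the remaining, dimmer one had -0.67 ± 0.73 (SE).

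PPT1, a thioesterase that removes palmitate from proteins, had 1174, 1039 and 992 with vehicle and 1458, 1404 and 1521 with the ligand. The groups were apart by more than the spread within either, and the log2 difference was 0.45 ± 0.21 (SE). PSAP, the precursor of the saposins that present sphingolipids to their hydrolases, had 17624, 16136 and 14522 with vehicle and 18506, 21386 and 20796 with the ligand. Its log2 difference was 0.33 ± 0.16 (SE), and a second PSAP probe set had -0.023 ± 0.20 (SE). SMPD1, the acid sphingomyelinase, and GM2A, the activator protein for ganglioside breakdown, had 0.20 ± 0.28 and 0.15 ± 0.25 (SE), both smaller than their errors. The median of the 6 lipid genes was 0.39, or 1.31-fold.

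**Figure D2:**
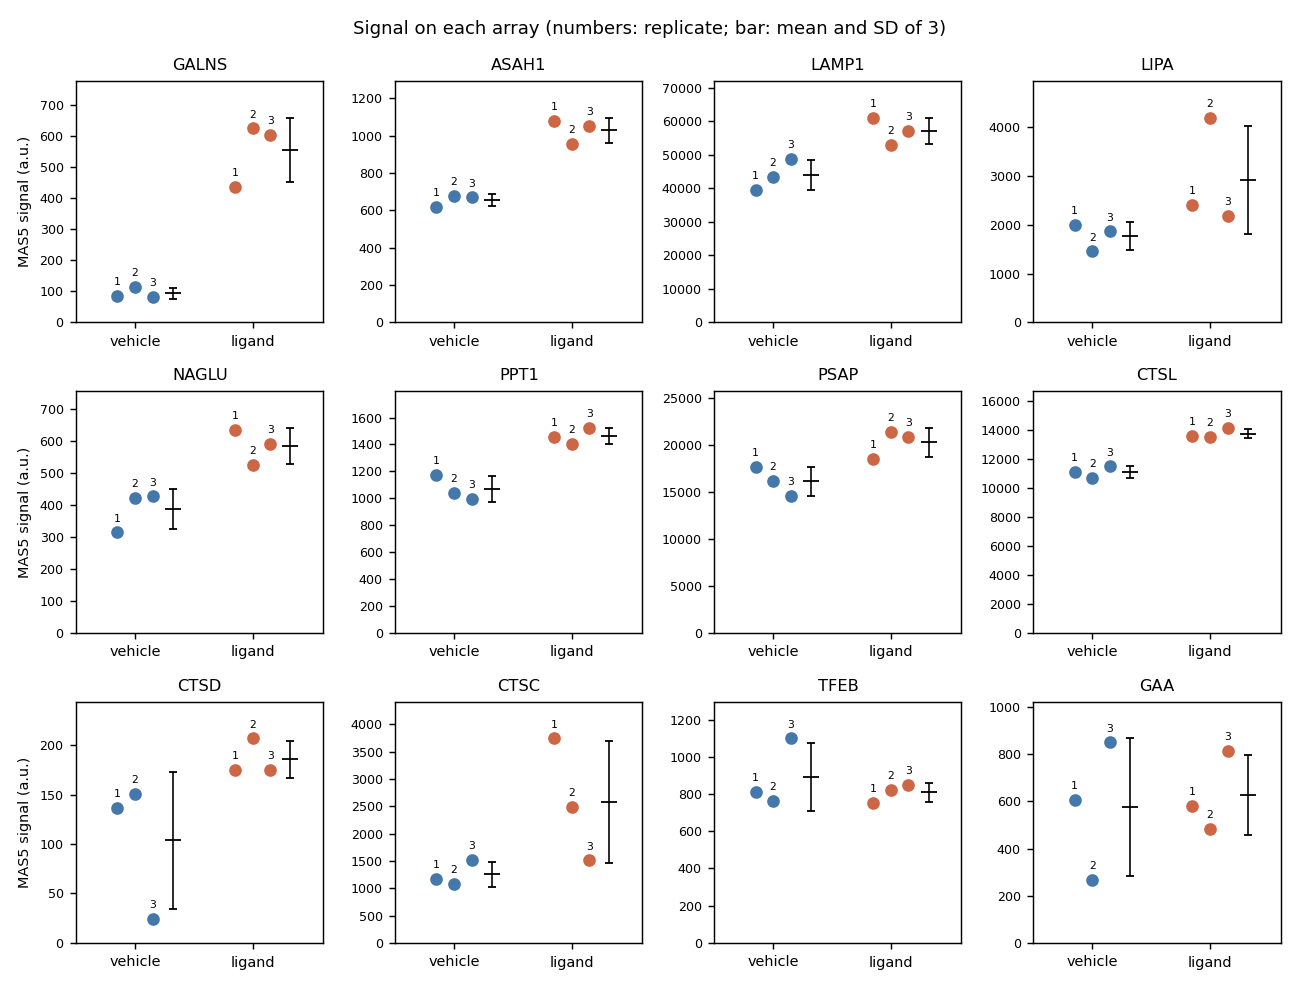
MAS5 signals on a linear axis from 0 for the 9 lysosomal genes with non-overlapping groups and for CTSC, TFEB and GAA, with array numbers beside the points and mean with SD of 3 at the right of each group. GALNS separates by several fold, most others by less than 2-fold, and CTSD owes its wide vehicle spread to array 3 at 24.3.

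Proteases were divided, with 5 of 9 higher and 4 lower. CTSC, a dipeptidyl peptidase that activates serine proteases of immune cells, had signals of 1177, 1078 and 1514 with vehicle and 3741, 2483 and 1508 with the ligand. Ligand array 1 was highest, and ligand array 3 lay within the vehicle range, so the groups overlapped. The CTSC mean was 1256 ± 229 with vehicle and 2577 ± 1120 under the ligand (SD, 3 arrays each), and the log2 difference was 0.95 ± 0.32 (SE), at unadjusted p = 0.013 and adjusted p = 0.829 in limma. Its other tested probe sets had 0.59 ± 0.50 and -0.071 ± 0.36 (SE).

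CTSL, a cysteine protease of broad specificity, had 11146, 10681 and 11505 with vehicle and 13584, 13570 and 14151 with the ligand. The difference was small but the arrays of each group lay close together, at a log2 difference of 0.31 ± 0.15 (SE), or 1.24-fold. CTSD, the main aspartic protease, had 137, 151 and 24.3 with vehicle and 175, 207 and 175 with the ligand. Vehicle array 3 was far below all others, and the CTSD log2 difference of 0.997 ± 0.65 (SE) was 0.33 without it. CTSZ, a carboxypeptidase, had 1673, 1442 and 1058 with vehicle and 2162, 1504 and 1865 with the ligand. Ligand array 2 lay below vehicle array 1, and the CTSZ log2 difference was 0.41 ± 0.25 (SE), or 0.23 without vehicle array 3.

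Of the other 5 proteases, 1 was higher and 4 lower, all with overlapping groups. LGMN, the asparagine-specific endopeptidase, had a log2 difference of 0.50 ± 0.40 (SE), which was 0.053 without vehicle array 3. CTSB, another cysteine protease, had -0.38 ± 0.30 (SE), CTSH, an aminopeptidase, -0.19 ± 0.21 (SE), and TPP1, a tripeptidyl peptidase, -0.13 ± 0.22 (SE). CTSA, the carboxypeptidase that shields NEU1, had -0.053 ± 0.21 (SE). Of the 5 tested CTSB probe sets 4 were lower and 1 higher, and the median of the 9 proteases was 0.31.

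Glycosidases of glycoproteins, glycolipids and glycogen gave no separated gene, with 3 of 6 higher, 3 lower and a median of -0.038. NEU1, the sialidase, had signals of 489, 482 and 662 with vehicle and 526, 372 and 242 with the ligand. Ligand array 1 lay inside the vehicle range and ligand arrays 2 and 3 below it, at a log2 difference of -0.55 ± 0.33 (SE), the lowest among the 37 genes. It was -0.27 without ligand array 3. GAA, the acid glucosidase that degrades glycogen, had 607, 268 and 850 with vehicle and 582, 483 and 815 with the ligand. The GAA groups overlapped fully, and the log2 difference of 0.23 ± 0.40 (SE) turned to -0.23 without vehicle array 2.

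MAN2B1, an alpha-mannosidase, had a log2 difference of 0.26 ± 0.21 (SE), and GLA, the alpha-galactosidase of globo-series lipids, 0.023 ± 0.22 (SE). HEXA, a subunit of beta-hexosaminidase, and FUCA1, the fucosidase, had -0.23 ± 0.22 and -0.10 ± 0.21 (SE). MANBA, the beta-mannosidase, fell short of the brightness filter, at 43.7, 283 and 52.0 with vehicle and 71.4, 38.9 and 111 with the ligand. A single vehicle array held its highest value, and the MANBA groups overlapped.

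All 5 membrane proteins were higher by small amounts, with a median log2 difference of 0.16, or 1.11-fold. LAMP1, a main glycoprotein of the lysosomal membrane, had signals of 39651, 43548 and 48738 with vehicle and 61029, 53092 and 57199 with the ligand. The ligand arrays all lay above the vehicle arrays, with means of 43979 ± 4559 and 57107 ± 3969 (SD, 3 arrays each). The LAMP1 log2 difference was 0.38 ± 0.15 (SE), or 1.30-fold, at unadjusted p = 0.032 and adjusted p = 0.873 in limma. The other 2 tested LAMP1 probe sets had 0.025 ± 0.21 and -0.28 ± 0.28 (SE).

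LAMP2, its relative, which also serves in autophagy, had 4474, 5309 and 4526 with vehicle and 6584, 4433 and 4525 with the ligand. Only ligand array 1 exceeded the vehicle range, and the LAMP2 log2 difference of 0.099 ± 0.21 (SE) was -0.086 without that array. All 4 tested LAMP2 probe sets were higher, by up to 0.40. MCOLN1, a calcium channel of the lysosome, had 0.26 ± 0.23 (SE), CD63, a tetraspanin, 0.16 ± 0.21 (SE), and SCARB2, the receptor that brings glucocerebrosidase to lysosomes, 0.12 ± 0.22 (SE). SCARB2 and CD63 also turned negative without ligand array 1, at -0.048 and -0.034.

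TFEB itself did not follow the higher genes. Its signals were 810, 766 and 1100 with vehicle and 754, 821 and 852 with the ligand, so that the highest value was on a vehicle array and the groups overlapped. The TFEB log2 difference was -0.12 ± 0.24 (SE) on the brighter probe set and -0.020 ± 0.32 (SE) on the other, and the first was 0.036 without vehicle array 3. ACP2, a lysosomal acid phosphatase, had -0.014 ± 0.20 (SE).

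Different probe sets of a gene often disagreed in sign. More than 1 tested probe set was found for 15 of the 37 genes, and in 11 of these the signs were mixed. The 4 of a single sign were CTSZ, SMPD1 and LAMP2, all higher, and TFEB, lower. Over all 71 tested probe sets of the 37 genes, 43 were higher and 28 lower. Among those that were not the brightest, all ligand arrays lay below all vehicle arrays on 1 HEXA probe set, at -0.39 ± 0.33 (SE). They lay above on 1 of ASAH1 and 1 of LAMP2, at 0.44 and 0.40. Of all 27304 tested probe sets, 1636 were higher and 1354 lower without overlap. Of the 9 genes without overlap, 6 (GALNS, NAGLU, CTSD, CTSL, LIPA and PPT1) had only 1 tested probe set, and ASAH1, PSAP and LAMP1 each had a probe set of the opposite sign.

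**Figure D3:**
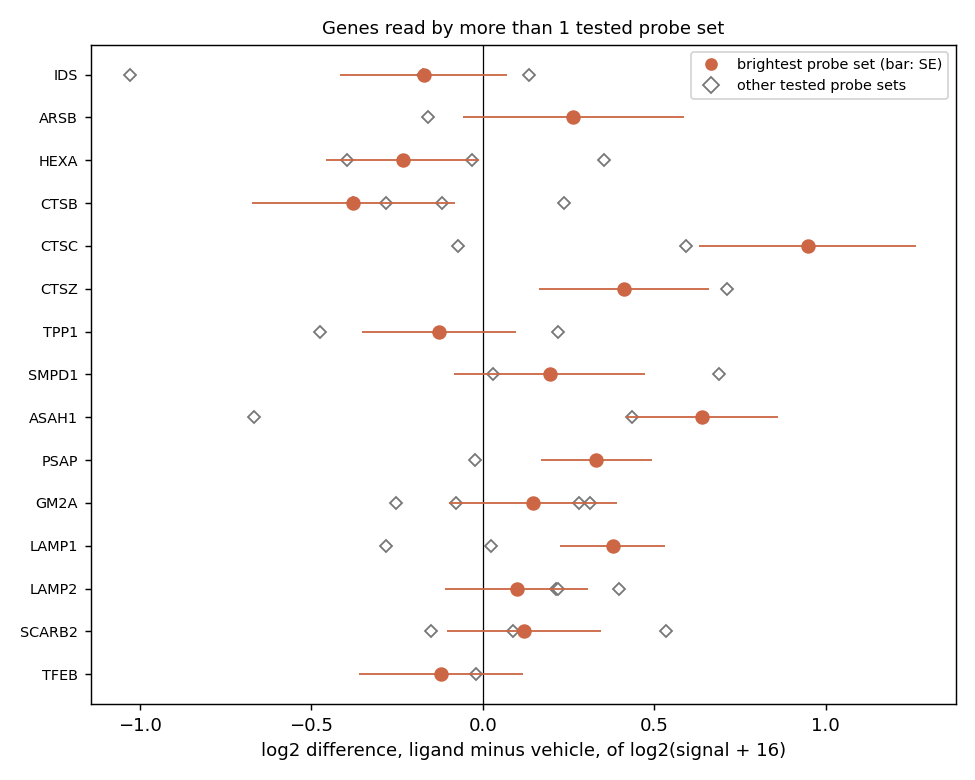
Log2 differences of each tested probe set for the 15 lysosomal genes read by more than 1, with the brightest as a filled circle with SE and the others as diamonds. The probe sets of 11 genes lie on both sides of 0.

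Other genes of the lysosomal system were taken from lists written from general knowledge of the pathway. Of 31 further lysosomal genes 18 were higher and 13 lower, with a median log2 difference of 0.059. LAPTM5, a lysosomal membrane protein of blood-derived cells, was at 0.82 ± 0.28 (SE), RNASET2, an acid ribonuclease, at 0.71 ± 0.28 (SE), and NPC2, which hands cholesterol on after LIPA has freed it, at 0.41 ± 0.16 (SE). NPC2 was the single gene of that list on which all ligand arrays were highest, with 7789, 9011 and 7702 for vehicle and 11151, 10411 and 10918 for the ligand. CLCN7, a chloride transporter of the lysosomal membrane, named after its values were seen, was the single gene on which all ligand arrays were lowest, with 4164, 3578 and 3029 for vehicle and 730, 2648 and 2968 for the ligand. Its log2 difference of -0.98 ± 0.45 (SE) was the farthest from 0 among the 31. SCPEP1, a carboxypeptidase, was also lower, at -0.78 ± 0.35 (SE). None passed adjustment in limma, and 4 of the 31 had an unadjusted p under 0.05. Of these, 3 were higher, which is 9.68%, and 1 lower, against 3.70% and 2.42% of all tested genes. The 1 gene without overlap that was higher is 3.23% of the 31, against 6.21% of all tested genes. For lower genes without overlap it was 1 of 31, against 5.21%.

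For sorting by mannose 6-phosphate, 9 of 11 genes were higher with a median of 0.067, and M6PR was lower. M6PR, the cation-dependent receptor that carries tagged enzymes, had 1598, 1170 and 1295 with vehicle and 868, 695 and 1077 with the ligand, so every ligand array lay below every vehicle array. The M6PR log2 difference was -0.62 ± 0.25 (SE), at unadjusted p = 0.031 and adjusted p = 0.873 in limma. IGF2R, the larger receptor of the same tag, was at 0.24 ± 0.18 (SE), and GNPTAB, which starts the tag, at 0.41 ± 0.31 (SE).

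The proton pump, the mTORC1 branch and autophagy had medians near 0. Of 15 pump subunits and accessory proteins 7 were higher and 8 lower, with a median of -0.053. ATP6V0E1, a small membrane subunit, was at 0.54 ± 0.24 (SE), ATP6V1H at 0.39 ± 0.26 (SE) and ATP6V0B at -0.25 ± 0.18 (SE). Of 21 genes that control TFEB or act in mTORC1 signalling at the lysosome, 13 were higher and 8 lower, with a median of 0.022. FNIP1, a partner of folliculin in that control, was below the vehicle range on every ligand array, at -0.49 ± 0.21 (SE), while TSC2, an inhibitor of the pathway, was at -0.51 ± 0.29 (SE) and RHEB, its activator, at 0.17 ± 0.16 (SE).

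Of 24 autophagy genes 10 were higher and 14 lower, with a median of -0.030 and 0 with an unadjusted p under 0.05 in limma. PIK3R4, a subunit of the lipid kinase of autophagy, had every ligand array below every vehicle array, at -0.45 ± 0.25 (SE), with ULK1, the initiating kinase, at -0.78 ± 0.44 (SE), and ATG5, of the conjugation machinery, at -0.31 ± 0.20 (SE). M6PR, FNIP1 and PIK3R4 were each the only gene without overlap in lists of 11, 21 and 24 tested genes. Among all tested genes 5.21% were lower without overlap.

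Markers of macrophages, which are rich in lysosomes, were also higher on the ligand arrays. The summed signal of 16 markers was 17359, 13957 and 19711 with vehicle and 26267, 30613 and 23741 with the ligand, so the groups did not overlap. Of these, 3 were too dim to be tested. Their means with vehicle and with the ligand were 126 and 39.3 for ADGRE1, 61.1 and 40.8 for TIMD4, and 24.3 and 45.8 for FCGR1A. All 13 tested ones were higher, against 50.3% of all tested genes, at a median log2 difference of 0.71. MSR1, with means of 125 with vehicle and 138 with the ligand, was tested through its ligand arrays. ADGRE1 had a like vehicle mean but was left out, so the filter had a part in the count of 13. Groups did not overlap for 5 of the 13, which is 38.5%, against 6.21% of all tested genes. Of the 16, 0 were listed at 0 on any array. As a median deviation from each gene's mean over the arrays, on the log2 scale, the 37 lysosomal genes stood at -0.054, -0.14 and -0.14 with vehicle and 0.18, 0.035 and 0.10 with the ligand. The 13 macrophage markers stood at -0.18, -0.80 and 0.00070 with vehicle and 0.31, 0.51 and 0.17 with the ligand. Both groups of genes were thus higher on all 3 ligand arrays, but in another order of arrays, with ligand array 1 highest for lysosomal genes and ligand array 2 for macrophage markers. In a piece of liver, more cells of a type and more RNA per cell cannot be told apart, and the part of macrophage markers in the lysosomal differences was not tested. Most markers of 2 other kinds of liver cell also had higher means with the ligand. For endothelial cells these were 10 of 11 markers, at a median of 0.45 on the log2 scale over the 11. Summed signals of the 11 were 11389 to 14409 with vehicle and 13723 to 17163 with the ligand, and overlapped. Their median deviation was -0.30, -0.22 and 0.013 with vehicle and 0.14, 0.13 and 0.47 with the ligand, without overlap. VWF, the exception and part of those sums, had 4667, 2129 and 1340 with vehicle and 157, 156 and 377 with the ligand. Its log2 difference of -3.39 ± 0.47 (SE) ranked 2 by p among the 27304 probe sets, at a limma adjusted p of 0.319. For stellate cells and fibroblasts 8 of 10 markers had higher means, at a median of 0.25, with sums of 17940 to 28360 against 33717 to 47754. Their deviations, -0.064, -0.52 and 0.056 against -0.13, 0.068 and 0.41, overlapped. The part of these markers in the lysosomal differences was not tested either. The 10 tested hepatocyte markers had a median log2 difference of -0.00084. Of 5 tested neutrophil markers 1 was higher and 4 lower, at a median of -0.34. Of 3 tested markers of osteoclast-like cells 1 was higher and 2 lower, at a median of -0.49. Markers of T and NK cells, of B and plasma cells and of cholangiocytes were each 2 higher and 2 lower.

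**Figure D4:**
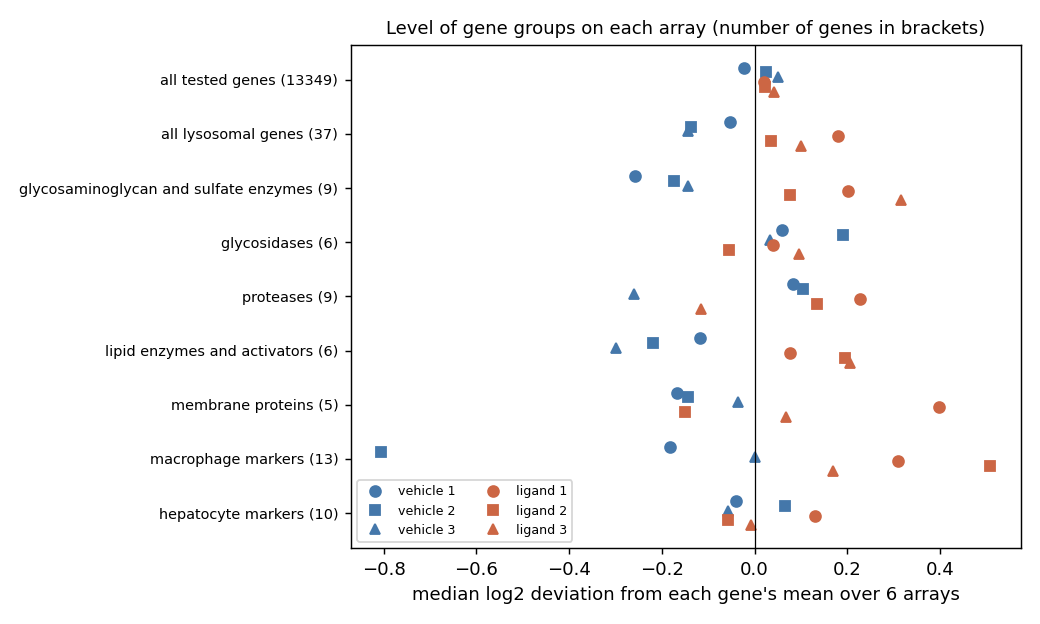
Median log2 deviation of each gene group from the genes' own means, for each of the 6 arrays, with the number of genes in brackets. The 37 lysosomal genes and the 13 macrophage markers lie higher on all 3 ligand arrays than on all 3 vehicle arrays, whereas the 6 glycosidases and 10 hepatocyte markers mix.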

How the data were processed

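Expression was measured in liver RNA of 6 macaques, 3 per group, taken from the array titles. The deposited values are MAS5 signals, an intensity on a linear scale per the submitters' processing notes; version and scaling target were not given in the sources used here. The 2% trimmed mean was 500.1 on every array. Without detection calls, low signal and absence of a transcript look alike, and human probes can read macaque transcripts poorly.

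Values were taken as log2(signal + 16), which understates fold changes of dim probe sets. Leaving out 62 control probe sets, the 27304 with a mean signal of at least 129, the median, were tested two-sided with limma 3.58.1 (R 4.3.3), using lmFit and eBayes with an intensity trend and Benjamini-Hochberg adjustment over all of them. Signals in every array are given for genes without overlap, the 12 smallest p-values, and TFEB, LIPA, LAMP1, LAMP2, CTSD and GAA among the lysosomal genes of the main list. From each pathway list the 3 genes with the smallest p are named by their log2 difference, with further ones where p was under 0.05, and signals are given for NPC2, M6PR and CLCN7. The genes and lists were chosen with earlier results of these data known. No list was tested. The fit was tested on simulated data. Alternatives were other pseudocounts, scalings, filters, variance settings, a replicate block, leaving out arrays and other probe sets. Figures used Python 3.11.15 and matplotlib 3.10.9. The number of arrays, 3 per group, limits the precision of each value.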

Additional observations from a re-analysis of the deposited data

How the results depend on the processing

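Over 18 settings no lysosomal gene passed adjustment in limma, with 0.207 (GALNS, mean of a gene's probe sets) as the smallest adjusted p. The median log2 difference with 1 array left out lay between 0.18 (vehicle array 2) and 0.30 (vehicle array 1), and was 0.16 on the mean of each gene's probe sets. Leaving out 1 array gave 22 to 28 genes higher, 3 to 5 with an unadjusted p under 0.05 in limma. Probe sets past the threshold were 0 to 1. Genes without overlap, higher or lower, were 11 to 14. With 1 array left out fewer arrays have to be separated, and no share of all tested genes was computed for comparison, so this count is no like measure for the 9 on all arrays. Centring arrays on the median left 3 genes with an unadjusted p under 0.05. Same-numbered deviations correlated at 0.040, -0.031 and 0.070, and differently numbered ones at -0.076 to 0.034, so any pairing by replicate number was weak. A replicate block cannot change the log2 differences of this balanced design, so the median of 0.23 and the 26 higher genes stayed by construction. With it 5 genes had an unadjusted p under 0.05 in limma. GALNS, ARSA, SGSH, CTSD and LGMN fell below a filter at the 75th percentile and have no value there.

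Of 695 values of single genes, 661 kept their sign and 34 turned, and 14 of the 37 genes never turned. The cause of the turns was not tested. Part of the 661 could not turn. The threshold of 0.10, the other filters, the fits without a trend or with robust variances and the replicate block leave each log2 difference unchanged. ACP2 became 0.014 under quantile normalization, and GLA -0.021 under median centring. With 1 array left out, the turned genes ranged as follows, and the array at the turned end is named. GLA ran from -0.062 (ligand array 1; -0.046 without vehicle array 1 or 3) to 0.16, TPP1 from -0.29 to 0.0065 (vehicle array 1), GM2A from -0.011 (vehicle array 1) to 0.36, GUSB from -0.33 to 0.17 (vehicle array 2), GAA from -0.23 (vehicle array 2) to 0.58, FUCA1 from -0.21 to 0.034 (vehicle array 2) and CTSH from -0.38 to 0.015 (vehicle array 2). SMPD1 ran from -0.076 (vehicle array 3) to 0.47, SCARB2 from -0.048 (ligand array 1; -0.021 without vehicle array 3) to 0.30, TFEB from -0.22 to 0.036 (vehicle array 3), LAMP2 from -0.086 (ligand array 1) to 0.20 and CD63 from -0.034 (ligand array 1) to 0.34. ARSB ran from -0.029 (ligand array 2) to 0.55, CTSA from -0.18 to 0.028 (ligand array 2), ACP2 from -0.077 to 0.10 (ligand array 2; 0.058 without vehicle array 1) and IDUA from -0.074 (ligand array 3) to 0.41. Other probe sets gave 0.13 for IDS, -0.16 for ARSB, 0.35 for HEXA, 0.24 for CTSB, -0.071 for CTSC, 0.22 for TPP1, -0.67 for ASAH1, -0.023 for PSAP, -0.25 and -0.076 for GM2A, -0.28 for LAMP1 and -0.15 for SCARB2.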
